A study of Mus musculus with 14 samples.

Results

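PRDM16 binding was described around 10 genes of the Notch pathway in mouse ventricles. They are the receptor genes Notch1 and Notch2, the ligand genes Jag1 and Dll4, the effector genes Hes1 and Hey1, the nuclear complex genes Rbpj, Maml1 and Maml3, and Mib1. A peak of the wild-type (WT) list belonged to a gene when that gene was the nearest protein-coding gene to its summit, measured to the gene body in the RefSeq annotation of GRCm38. Of 17587 WT peaks, 53 were assigned in this way, to 7 of the 10 genes. The series measured PRDM16, a zinc-finger transcription factor, by chromatin immunoprecipitation and sequencing (ChIP-seq) in ventricles of C57BL/6 embryos at E13.5 (embryonic day). Its 14 samples are 7 PRDM16 libraries and 7 inputs, which are chromatin without antibody. WT whole hearts without atria gave 2 PRDM16 libraries and the conditional Prdm16 knockout (Prdm16cKO) gave 1, each from 3 pooled hearts. WT left ventricle (LV) and WT right ventricle (RV) gave 2 PRDM16 libraries each, from pools of 10 to 12 ventricles. WT samples carry the label Mock for genetic manipulation. The driver and alleles of the knockout are not given in the sources used here, and the cells that lost PRDM16 are thus not known from them.

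In the Notch pathway a ligand on one cell binds a receptor on its neighbour. The receptor is then cut, and its intracellular domain enters the nucleus, where it joins the DNA-binding protein RBPJ and a Mastermind-like co-activator to switch on target genes such as those of the HES and HEY repressors. Mib1 encodes the ubiquitin ligase that makes ligands active in the signal-sending cell. In the embryonic heart, Notch1 and Dll4 act in the endocardium, Notch signalling is needed for trabeculation and for ripening of the compact wall, and loss of Mib1 in mouse heart muscle causes noncompaction.

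Of the 53 summits, 3 lay inside a RefSeq promoter window, which runs from 250 bases before to 50 bases after a listed transcript start and is 300 bases long. These windows, at Notch2, Maml3 and Maml1, are shown because they are the member promoters where PRDM16 peaks and sequence can be set side by side. Each is written 5′ to 3′ on the strand of its gene, from the RefSeq GRCm38.p6 table, and the 11 bases in capitals are centred on the peak summit. The Notch2 window is chr3:98013288-98013587 on the + strand, that of Maml3 is chr3:52104957-52105256 on the - strand, and that of Maml1 is chr11:50292287-50292586 on the - strand.
Notch2: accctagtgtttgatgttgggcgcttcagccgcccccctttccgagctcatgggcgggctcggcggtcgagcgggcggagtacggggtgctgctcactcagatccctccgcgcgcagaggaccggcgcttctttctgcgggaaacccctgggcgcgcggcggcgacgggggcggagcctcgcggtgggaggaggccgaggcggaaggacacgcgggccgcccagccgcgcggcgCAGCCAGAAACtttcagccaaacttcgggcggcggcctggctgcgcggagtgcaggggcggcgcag
Maml3: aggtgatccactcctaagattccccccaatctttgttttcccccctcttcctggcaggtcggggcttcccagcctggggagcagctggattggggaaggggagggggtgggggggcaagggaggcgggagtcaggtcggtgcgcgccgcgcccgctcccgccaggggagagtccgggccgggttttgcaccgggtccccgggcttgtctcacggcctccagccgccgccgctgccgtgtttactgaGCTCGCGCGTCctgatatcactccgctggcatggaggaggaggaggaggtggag
Maml1: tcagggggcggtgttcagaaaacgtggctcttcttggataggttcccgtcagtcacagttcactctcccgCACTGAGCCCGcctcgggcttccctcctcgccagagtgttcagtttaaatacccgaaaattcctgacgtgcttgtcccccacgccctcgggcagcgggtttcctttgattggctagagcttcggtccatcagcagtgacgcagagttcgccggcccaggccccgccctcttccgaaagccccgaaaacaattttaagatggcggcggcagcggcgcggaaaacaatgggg
The Notch2 summit fell on base 240, 11 bp before the listed start, and the Maml3 summit on base 252, 1 bp past it. In Maml1 the summit fell on base 76, at -175 bp from the listed start but inside the annotated gene body. The windows held 73.0%, 68.3% and 59.3% G and C, with 41, 22 and 24 CpG dinucleotides, against a median G and C content of 52.7% over all 32851 windows and of 62.7% over the 1284 windows that hold a WT summit.

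Short motifs were searched for on both strands in the windows, each spelled as bound by 1 family of factors. RBPJ binds TGGGAA, and TEAD factors bind GGAATG. Factors of the GATA family were represented by the letters AGATAA, and those of the T-box family by AGGTGT. The E-box that HEY repressors can bind was searched as CACGTG. The motifs of RBPJ and TEAD can overlap. Of the 3 windows with a summit, that of Maml3 held TGGGAA once, in reverse at bases 66 to 71, and the windows of Notch2 and Maml1 held none of them. Over all windows TGGGAA was present in 25.6%, and in 24.4% of those with a WT summit, and with 3 windows its presence in 1 is no more than a description. The TEAD, GATA, T-box and E-box motifs were present in 14.7%, 11.2%, 13.7% and 7.15% of all windows. Windows of Notch1, Dll4, Jag1 and Rbpj are also in the table and held no summit, while Hes1, Hey1 and Mib1 had no matching entry. The 2 Rbpj windows overlap and share a TGGGAA. The Rbpj window that starts at chr5:53590096 also held another TGGGAA (bases 102 to 107), a GGAATG and an AGGTGT. The Notch1 window held GGAATG in reverse at bases 18 to 23 and 35 to 40. These matches describe letters and are not measured sites.

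Peaks were assigned to 1 of the 2 receptor genes and 1 of the 2 ligand genes. Notch2 had 4 peaks and Jag1 had 8, while Notch1 and Dll4 had none. The stretch in which a gene is the nearest also differed. It was 90 kb for Notch1 and 31 kb for Dll4, against 165 kb for Notch2 and 606 kb for Jag1. These counts are therefore not a like-for-like comparison of binding between the genes. The share of protein-coding genes with a WT peak was 32.9%. From Notch1, on chr2:26457902-26503822, the closest summit was 69718 bp away and belonged to Egfl7, its neighbour that encodes a secreted endothelial factor, with a fold enrichment of 4.18. From Dll4, on chr2:119325784-119335666, the closest summit was 310146 bp away and belonged to Ccdc32. Nothing was assigned to either gene with any gene within 50000 bp counted in place of the nearest. Absence of a called peak is not absence of binding, and the depth of the whole-heart libraries is unknown. In tissue samples, fewer cells that carry a bound site and less binding per cell cannot be told apart.

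Notch2 encodes a receptor of the pathway. Its strongest peak, chr3:98094755-98095459, lay 81503 bp into the gene with a fold enrichment of 4.36 (the authors' ratio of ChIP to background) and a -log10 q of 9.32. Its promoter peak, chr3:98013503-98013976, was weaker, at 2.77. The other peaks of Notch2 lay 11002 and 12652 bp into the gene, at 3.41 and 2.45. The median of all WT peaks was 4.004, so that 3 of the 4 Notch2 peaks were below it.

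Jag1 encodes a ligand whose peaks were mostly far from the gene. A pair of peaks lay inside it, 1483 and 2102 bp downstream of the listed start at chr2:137116520, at 3.70 and 3.56. The other 6 lay 193430 to 548580 bp upstream, in a stretch where Jag1 is the nearest protein-coding gene, and included the strongest, chr2:137422636-137423005, at 6.26 with a -log10 q of 18.8. Nearness alone assigned these 6, and whether they act on Jag1 was not measured. Jag1 was the nearest gene for 606 kb of sequence although its body is 35.1 kb long.

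Of the effector genes, Hes1, a repressor switched on directly by Notch, had 11 peaks, and Hey1, a related repressor, had none. Of 7202 genes with a peak, 145 had at least 11, Hes1 included. Of its peaks, 7 formed a cluster over 8.68 kb, chr16:30059376-30068302, around the 2.44 kb gene. Summits in the cluster had fold enrichments of 2.87 to 4.17, and 3 of them lay within 1000 bp of an end of the gene (3.24, 3.56 and 3.46). The strongest peak of Hes1 was not in the cluster but 182372 bp from the gene, at chr16:29882595-29883094, with a fold enrichment of 5.25 and a neighbour of 3.66 beside it. Hey1 lies on chr3:8663359-8667038, and the closest summit was 50651 bp away and nearest to the predicted gene LOC115489673, at 4.71. Hey1 was the nearest gene for 54 kb of sequence, against 298 kb for Hes1, so their counts are not a like-for-like comparison of binding.

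**Figure D1:**
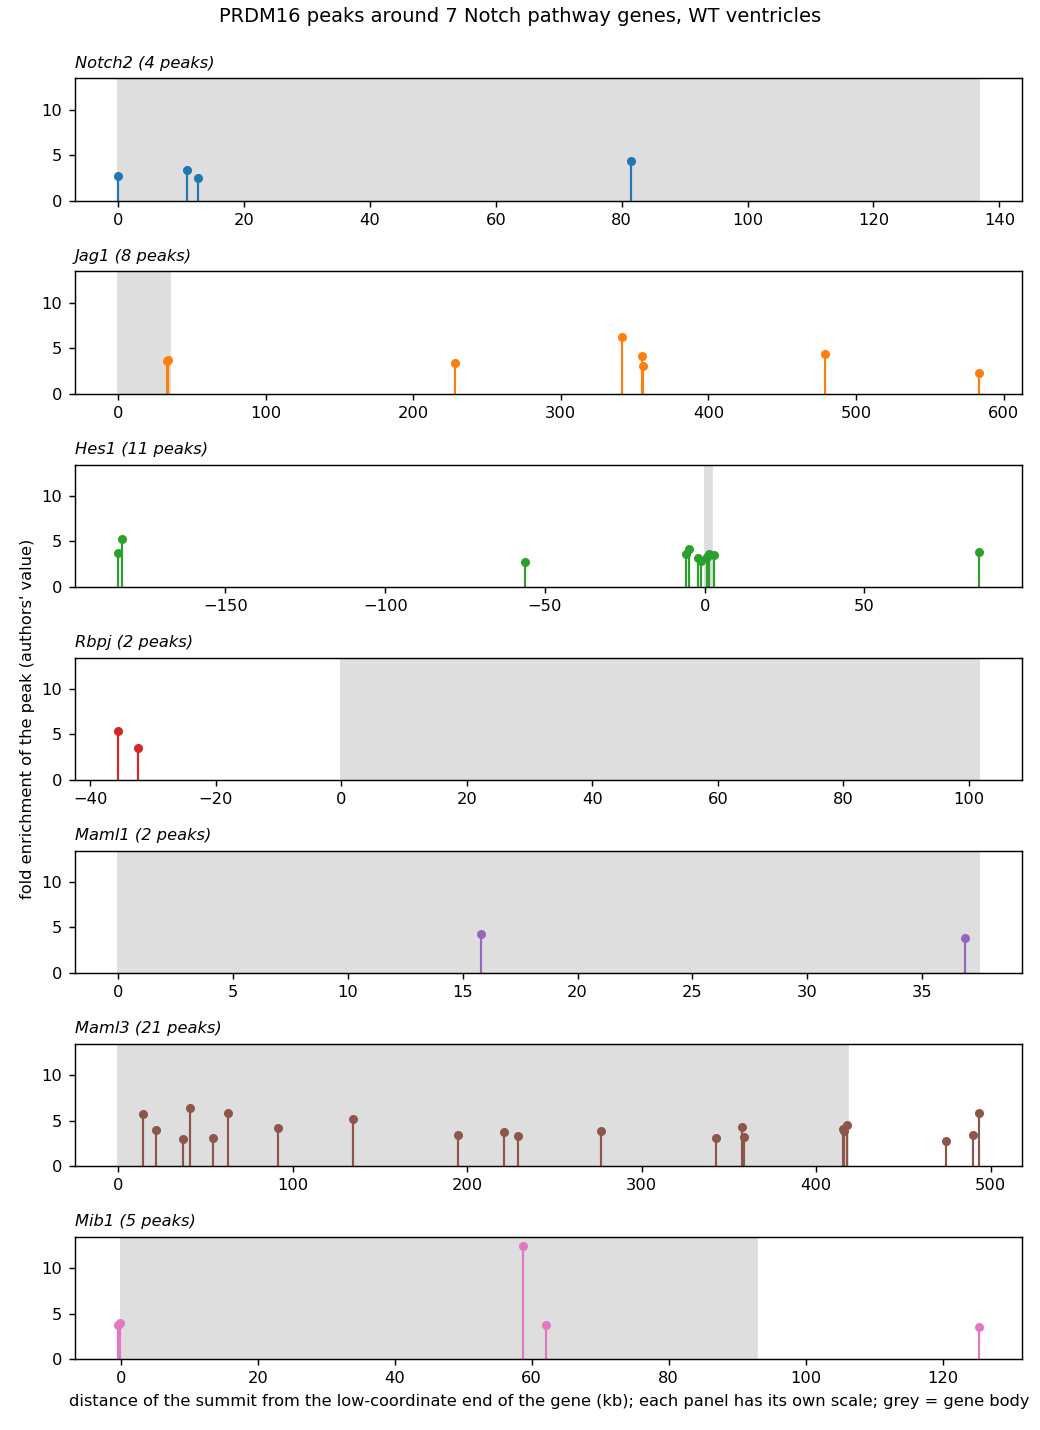
Position and fold enrichment of the 53 PRDM16 peaks around the 7 genes with peaks. The x axis is the distance in kb from the end of the gene with the lower coordinate (scales differ between panels), the y axis is the authors' fold enrichment, each stem is a peak and grey is the gene body. Maml3 peaks fill the gene, Jag1 peaks extend to 548580 bp beyond it, and the Mib1 peak at 12.4 is the tallest.

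Rbpj, Maml1 and Maml3 encode parts of the nuclear complex that acts with the cut receptor. Maml3 had the most peaks of the 10 genes, with 21, and 12 genes in the genome, Maml3 included, had at least as many. Of its peaks, 18 lay inside its body of 418 kb on chr3:51687320-52105319 and 3 lay 56454 to 75543 bp outside. The strongest, chr3:51728143-51728955, had a fold enrichment of 6.34 and a -log10 q of 23.7. A group of 3 peaks stood within 2.26 kb at the end that holds the listed start, at 4.09, 3.81 and 4.46, the last of them the promoter peak. Within the gene the peaks differed in height and depth. Those at chr3:51749869-51750380 (5.82) and chr3:51701409-51701825 (5.72), both toward the far end from the start, came next after the strongest, and a peak 75543 bp outside the gene reached 5.79. The widest of the 53 was the start-side peak chr3:52101842-52103089, at 1248 bp. The weakest Maml3 peak, 56454 bp outside, had a fold enrichment of 2.70. Maml3 peaks came to 41.8 per Mb of the sequence nearest to the gene, against 23.3 for the 10 genes together and 6.79 over all genes. The last 2 values include sequence nearest to genes without a peak. On the same measure Maml1 had 42.6, which rests on 2 peaks in 47 kb. Hes1 had 36.9, Notch2 24.2, Mib1 22.8, Jag1 13.2 and Rbpj 7.66 peaks per Mb, so that the order by density was not that by number.

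Maml1 had 2 peaks in a body of 37.5 kb, at 4.32 inside the gene (chr11:50271302-50271558) and 3.82 at the promoter (chr11:50292406-50292584). Rbpj had 2 peaks, both outside the gene, 35578 and 32470 bp from its low-coordinate end. The stronger, chr5:53520112-53520458, had a fold enrichment of 5.42. No Rbpj peak lay within 10000 bp of the gene.

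Mib1 carried the strongest PRDM16 peak of all 53. It lay inside the gene at chr18:10783885-10784707, with a fold enrichment of 12.4 and a -log10 q of 73.3, and ranked 227 of 17587 WT peaks. A weaker peak of 3.69 stood 3.37 kb from it. The other peaks of Mib1 lay within 1000 bp of the gene's low-coordinate end (3.70 and 3.94) and 32427 bp beyond the gene (3.47). Of all 53 peaks, the one inside Mib1 was the only one among the strongest 10% of WT peaks.

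**Figure D2:**
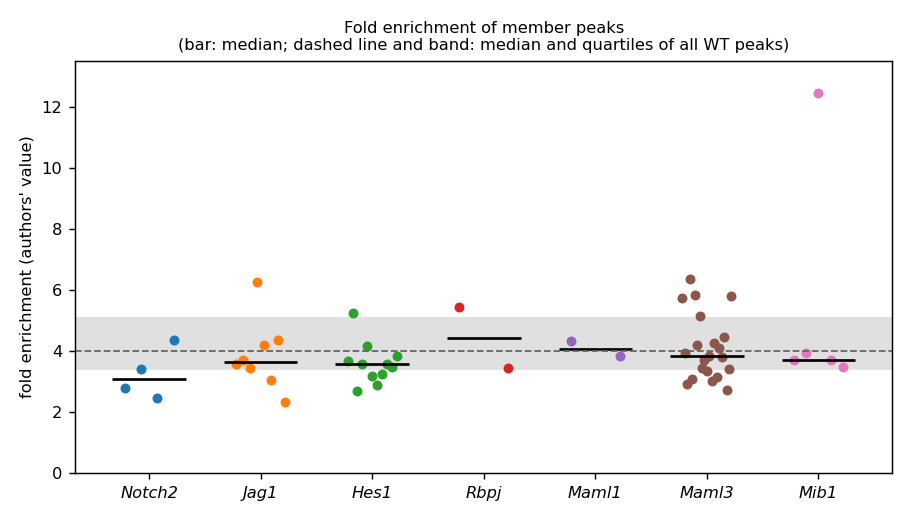
Fold enrichment of each member peak by gene, as the authors' ratio of ChIP to background. Points are peaks, bars are medians per gene, and the dashed line and band are the median (4.004) and quartiles (3.39 and 5.07) of all WT peaks. The Mib1 peak at 12.4 stands apart from the other 52 peaks, which reach 6.34.

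As a group the peaks were of modest height. Median fold enrichment was 3.70 for the 53 peaks and 4.004 for all WT peaks, and 9 of 53 (17.0%) reached a fold enrichment of 5, beside 26.1% of all WT peaks. Median width was 259 bp, beside 298 bp. Of the peaks, 8 (15.1%) lay within 1000 bp of a gene end, beside 16.4% of all WT peaks, 29 (54.7%) lay inside a gene body, beside 58.9%, and 13 (24.5%) were more than 50000 bp from the gene, beside 15.6%. All 13 belonged to Jag1, Hes1 and Maml3. A promoter window held 3 summits (5.66%), beside 6.61% of all summits, and 3.91% of all windows held a WT summit. Another WT summit lay within 10000 bp of 36 of 53 peaks (67.9%), beside 40.5% of all WT peaks. Most of the 36 belonged to Maml3 and Hes1, which had 21 and 11 peaks. Genes with a peak had a median of 5 peaks among the members and of 1 over all genes. Closeness was not compared between genes with equal numbers of peaks.

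Specificity was read from the knockout list of 330 peaks. None of the 53 peaks shared a base with a knockout peak, beside 1.12% of all WT peaks. For a count of 0 in 53 the 95% Wilson interval of the share reaches 6.76%, so that this count does not separate the member peaks from the rest. From every member peak the closest knockout peak was at least 864883 bp away. This distance was not measured for all WT peaks, so with only 330 knockout peaks it shows nothing particular to the members. There was 1 knockout library, so this comparison has no replicate check, and no values of the knockout at WT peaks are in the files used here.

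The comparison of LV with RV asked whether PRDM16 signal at these peaks differed between the ventricles. Reads in the 17587 peaks ranged from 184244 to 330443 per library. They were worked out from the authors' LV and RV columns, in which the 2 libraries of each ventricle appear as a mean. Libraries are called A and B in each ventricle, the letters carry no replicate number, and reads are given in the order A, B. A read was worth 0.744 and 1.47 normalized reads in LV and 0.866 and 0.965 in RV, and libraries were compared on normalized reads. The median member peak held 10 and 4 reads in LV against 9 and 7 in RV, so that single peaks rest on few reads. In the authors' deposited table no member peak passed the test. The adjusted p was 0.9998 at every one, and none had an unadjusted p under 0.05. Of all regions 0% passed the adjusted threshold and 0.483% the unadjusted one.

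A second test, limma on log2 of normalized reads per library, called none of the 53 at an adjusted p under 0.05 either, and 0.0284% of all regions. Its smallest adjusted p among members was 0.675. An unadjusted limma p under 0.05 was found at 6 member peaks, beside 6.32% of all regions. These 6 were Hes1 peaks at chr16:30008906-30009226 and chr16:30063202-30063421, Maml3 peaks at chr3:51778825-51779243 and chr3:52104876-52105207, the most distant Jag1 peak and the strongest Mib1 peak.

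Values at the strongest Mib1 peak were 38 and 12 reads in LV against 40 and 50 in RV. Scaled by library, both RV libraries (34.6 and 48.2 normalized reads) lay above both LV libraries (28.3 and 17.6). The authors' deposited table gave a log2 RV over LV of 0.84 (p = 0.133), and limma gave 0.84 (SE 0.34, adjusted p = 0.694). The difference therefore did not pass either test, and the limma log2 was 0.52 without LV library B and 1.17 without LV library A.

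The Maml3 promoter peak had 12 and 5 reads (LV) against 22 and 14 (RV), with RV libraries again above LV libraries. Its log2 RV over LV in the authors' deposited table was 0.96 (p = 0.206). A Maml3 peak deeper in the gene, chr3:51778825-51779243, was higher in LV, with 20 and 14 reads in LV and 7 and 10 in RV. There the LV libraries lay above the RV libraries, and the log2 was -1.12 (p = 0.133 in the authors' deposited table). The next by size on that side was Maml3 chr3:51916181-51916362, with 12 and 6 reads in LV against 4 and 5 in RV and a log2 of -1.01 (p = 0.281 in the authors' deposited table). Differences of Maml3 peaks thus lay on both sides of 0. The Hes1 peak at chr16:30066099-30066274 had 6 and 6 reads in LV against 5 and 3 in RV, a log2 of -0.79 (p = 0.472 in the authors' deposited table), with LV libraries above RV libraries by a small margin. Its limma log2 was -0.26 without LV library B and -1.10 without LV library A.

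The largest difference of the 53 stood at the most distant Jag1 peak, chr2:137664996-137665254, with 1 and 0 reads in LV and 5 and 5 in RV. Its pooled reads were 10 in RV against 1 in LV, a ratio of 9.25 once scaled by the weights of the libraries. The exact 95% interval, from 1.32 to 401, covers counting error only. It does not allow for the choice of this peak as the most extreme of the 53, so it is no test of a difference. The adjusted p in the authors' deposited table was 0.9998. The log2 of 2.54 in the authors' deposited table (p = 0.0983) depends on the 0.5 added to both ventricles. This was also the weakest of the 53 peaks, at a fold enrichment of 2.33.

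The strongest peaks of the other genes showed smaller differences. At Maml3 chr3:51728143-51728955 the libraries held 32 and 18 reads in LV and 32 and 32 in RV. Hes1 chr16:29882595-29883094 had 24, 12, 22 and 20 reads in the same order, and Jag1 chr2:137422636-137423005 had 8, 9, 9 and 15. In the authors' deposited table the log2 RV over LV of these 3 was 0.22, 0.11 and 0.21, and on normalized reads the libraries of Jag1 overlapped. Notch2 chr3:98094755-98095459 had 19, 15, 20 and 12 reads, Rbpj chr5:53520112-53520458 had 17, 9, 12 and 15, and Maml1 chr11:50271302-50271558 had 6, 3, 6 and 5. Their log2 values in the authors' deposited table were -0.31, -0.05 and 0.16, and the libraries of Notch2 and Rbpj overlapped. None of these passed a test. The widest Maml3 peak, chr3:52101842-52103089, held the most reads of the 53, with 82 and 37 in LV against 81 and 47 in RV, and its values in the authors' deposited table were 58.1 and 58.2. The peak with the most reads was thus also the one with the smallest difference.

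At the gene ends the differences also had both signs. The Notch2 promoter peak held 18, 7, 16 and 20 reads, and that of Maml1 held 7, 2, 10 and 5. Their log2 RV over LV in the authors' deposited table was 0.47 and 0.66. For the 3 peaks within 1000 bp of a Hes1 end the authors' deposited table gave -0.79, 0.27 and -0.25, and for the pair at the low-coordinate end of Mib1 it gave -0.52 and 0.06. In the authors' deposited table the smallest p of these 7 was 0.472.

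**Figure D3:**
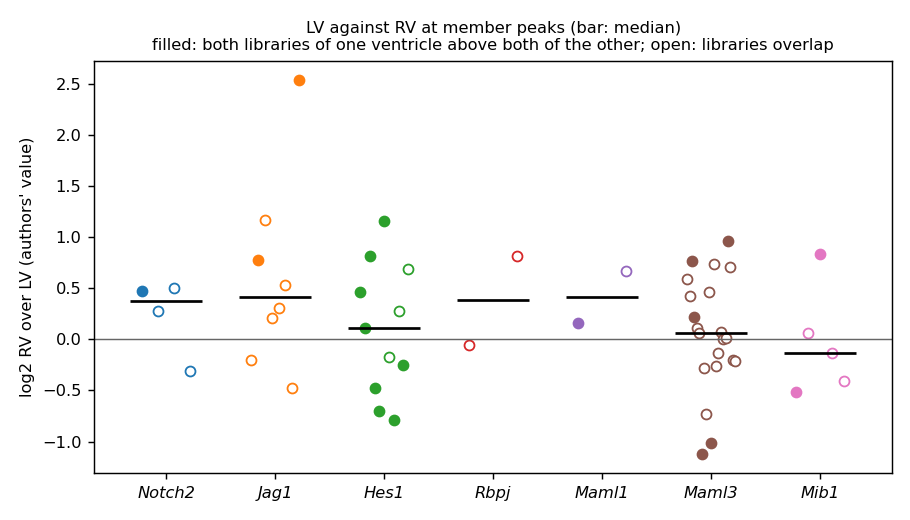
log2 RV over LV of each of the 53 member peaks by gene, from the authors' deposited table. Bars are medians per gene, filled points are peaks where both libraries of 1 ventricle lie above both of the other, and open points are peaks where the libraries overlap. Points lie on both sides of 0 in 6 of the 7 genes, and the highest, at 2.54, is the Jag1 peak with 1 read in LV.

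Over the 53 peaks, 33 were higher in RV and 20 in LV, with a median log2 RV over LV of 0.11 in the authors' deposited table, which also gave the values by position that follow. Over all regions 49.8% were higher in RV and 50.2% in LV, and the median was -0.0028. Both RV libraries lay above both LV libraries at 12 member peaks, beside 17.6% of all regions, and both LV libraries above both RV libraries at 7, beside 17.9%. At 34 member peaks the libraries overlapped. A log2 of at least 1 was reached at 3 peaks in RV and 2 in LV, beside 5.39% and 5.24% of all regions. By position, 10 of the 13 peaks over 50000 bp from their gene were higher in RV, beside 1390 of 2740 WT peaks so placed. Their median log2 was 0.47, and 0.01 over all WT peaks so placed. These 13 belonged to Jag1, Hes1 and Maml3 only. Of the 29 peaks inside a gene, 19 were higher in RV, beside 5107 of 10358 WT peaks so placed. The medians there were 0.11 and, over all, -0.0086. The 21 Maml3 peaks had 13 higher in RV (0.07) and the 32 peaks of the other genes 20 (0.24). Peaks of 1 gene share their libraries and neighbourhood and are not replicates, and these shares were not tested.

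Summed over the peaks of a gene, RV means were above LV means in all 7 genes, beside 49.1% of all genes with a peak and 49.4% of those with at least 2 peaks. Both RV libraries lay above both LV libraries in 1 of the 7, beside 17.3% and 18% of such genes, and the libraries overlapped in 6. Leaving out LV library B turned the sums of Hes1 and Maml3, so that 5 of the 7 were then higher in RV. The 21 Maml3 peaks held 252 and 231 normalized reads in LV against 271 and 232 in RV (log2 0.06). The 11 Hes1 peaks held 105 and 74.7 in LV and 107 and 94.5 in RV (0.16). The 5 Mib1 peaks held 77.4 and 51.3 against 68.4 and 86.8 (0.27). LV library B was the lowest of the 4 for these genes, and also for Notch2, Rbpj and Maml1. Over the 53 peaks it held 464 normalized reads, against 537 in LV library A and 572 and 542 in RV. Over all WT peaks it held the most, 269943, against 245962 in LV library A and 244043 and 258338 in RV. The part of this library in the higher RV means was not tested.

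The 8 Jag1 peaks held 30.5 and 46.9 normalized reads in LV and 45.9 and 54.0 in RV (log2 0.37), with LV library A the lowest. The Rbpj pair held 21.6 and 14.7 against 20.8 and 23.2 (0.28), and the Maml1 pair 9.68 and 7.33 against 13.9 and 9.65 (0.47). Notch2, with 40.2 and 38.1 against 45.9 and 41.5 (0.16), was the gene whose libraries did not overlap. Leaving out each library in turn gave log2 values of 0.09 to 0.71 for Jag1, 0.18 to 0.70 for Maml1, 0.03 to 0.58 for Rbpj, 0.0038 to 0.60 for Mib1, -0.06 to 0.43 for Hes1, -0.06 to 0.16 for Maml3 and 0.08 to 0.23 for Notch2. For Maml1 the lowest value was without RV library A and the highest without RV library B, for Jag1 the lowest was without LV library A and the highest without LV library B, and for Rbpj, Mib1 and Hes1 the reverse of Jag1. For Maml3 the lowest was without RV library A and the highest without RV library B. No test was run on these sums.

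Over the 53 peaks together LV library B held the fewest normalized reads, but it was low at some peaks and high at others. It held 3 reads, against 24, 25 and 19 in the other libraries, at Hes1 chr16:30008906-30009226, and 1 read, against 11, 13 and 12, at Hes1 chr16:30063202-30063421. At Rbpj chr5:53523205-53523403 it held 1 read, against 12, 12 and 9. These 3 were picked for their low reads in that library, so that their difference had to shrink without it and says nothing of the other peaks. Over all 53 peaks the log2 was lower without LV library B at 32 and higher at 21, and 31 were then higher in RV in place of 33. Among those that became higher, the Jag1 peak at chr2:137114256-137114504 moved from -0.20 to 0.71 and the Maml3 peak at chr3:52161580-52161863 from 0.71 to 1.44. Leaving out LV library A instead, which rests LV on library B alone, limma called the Hes1 peak at chr16:30008906-30009226 (log2 1.96, SE 0.48, adjusted p = 0.0146), beside 0.512% of all regions. The part of single libraries in these differences was not tested further.

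**Figure D4:**
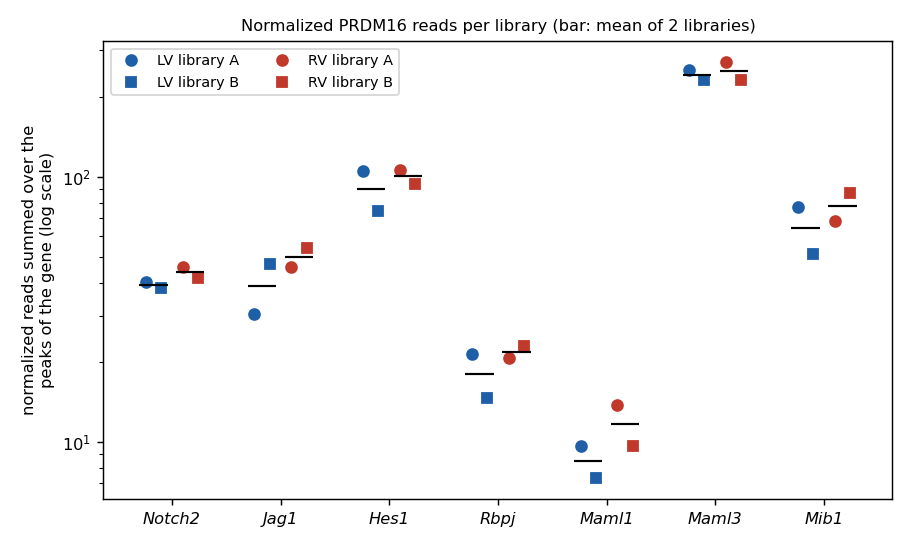
Normalized PRDM16 reads summed over the peaks of each gene, on a log axis, in the 4 libraries of LV (blue) and RV (red). Points are libraries, circles A and squares B, and bars are the means of the 2 libraries. RV means lie above LV means in the 7 genes, beside 49.1% of all genes with a peak, and the libraries of LV and RV overlap in all but Notch2, beside 17.3% of all genes with both RV libraries above both LV libraries.

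The rest of the pathway was described with a list of 44 other genes, of which 24 (54.5%) had at least 1 WT peak, 58 peaks in all, beside 32.9% of all protein-coding genes. By role, 5 of 6 co-activators and co-repressors had a peak, 4 of 5 effectors, 6 of 9 regulators, 3 of 5 ligands and 2 of 3 ligand ligases. A peak was assigned to 3 of 6 subunits of gamma-secretase, the enzyme that cuts the receptor in the membrane, and 1 of 3 genes for proteases of the first cuts. Neither Notch3 nor Notch4, and none of 5 genes for enzymes that add sugars to the receptor, such as Lfng and Pofut1, had any.

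The strongest peaks of the list belonged to Hey2 (12.2), a repressor expressed in the compact wall, with 3 peaks of which this lay 210670 bp from the gene. Next were Fbxw7 (8.33), a ubiquitin ligase subunit that marks the cut receptor for decay, Kat2b (7.91), an acetyltransferase, Adam10 (6.39), the protease of the first ligand-induced cut, and Neurl1b (5.92), a ligand ligase. They were followed by Maml2 (5.39), the remaining Mastermind-like gene, Dll1 (5.30), a ligand, and Hes6 (4.60). These peaks lay 296098 bp from Fbxw7, 81835 bp from Dll1, 32497 bp from Neurl1b and 157 bp from Hes6. Those of Kat2b, Adam10 and Maml2 lay inside the gene. Maml2 and Neurl1b had 8 peaks each. Median fold enrichment of the 58 peaks was 3.90, and none overlapped a knockout peak.

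In LV against RV, none of the 58 had an unadjusted p under 0.05 in the authors' deposited table, and none passed with limma. Of the 58, 25 were higher in RV and 33 in LV, with a median log2 of -0.09 in the authors' deposited table. The difference between both lists was not tested.

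**Figure D5:**
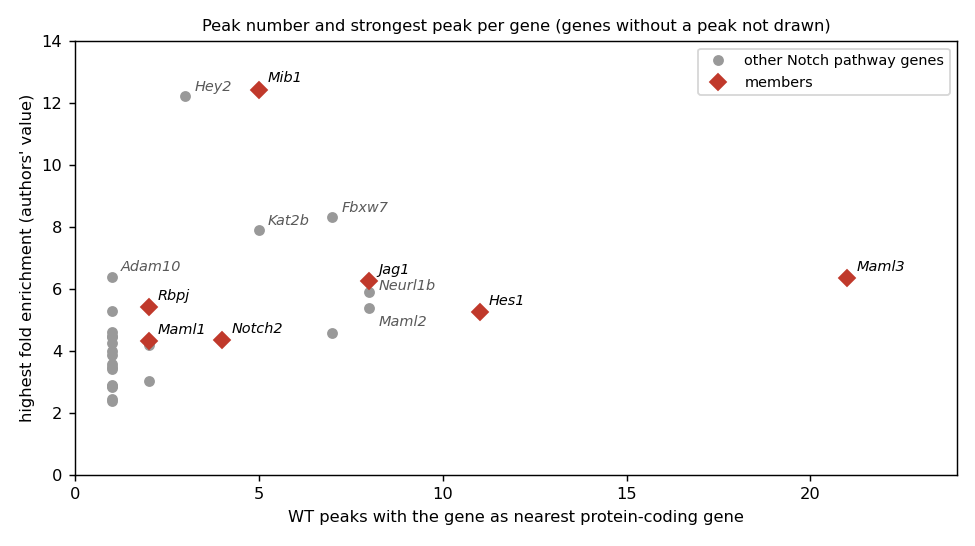
Number of WT peaks per gene (x axis) and highest fold enrichment among them (authors' value, y axis) for 7 of the 10 genes (red diamonds) and 24 other Notch pathway genes (grey points). Maml3 has the most peaks (21), and Mib1 (12.4) and Hey2 (12.2) the strongest.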

How the data were processed

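The deposited files are a WT peak list, a Prdm16cKO peak list and an LV and RV comparison. Per the submitters' processing notes the tools were MACS2 2.1.1.20160309, BWA 0.7.12-r1039, DESeq2 and HOMER, with GRCm38 and mm10 listed as builds and no roles stated. The sources used here do not give the pooling of replicates or the test behind the p-values. The peak lists hold the authors' score (10 times the -log10 q, rounded down), fold enrichment ratio, -log10 q and summit offset, and 2 other columns were not used. The deposited table holds the LV and RV signal, log2 values, and p-values. Positive log2 is higher in RV.

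Each LV and RV signal, less 0.5, was split into whole reads of its libraries, each weighted by a constant, with exactly 1 solution at 100% of regions (tolerance 1e-05). limma 3.58.1 (R 4.3.3) was run with a pseudocount of 1 on the log2 scale over all regions with a mean-variance trend and Benjamini-Hochberg adjustment. Both steps were tested on simulated data. Python 3.11.15 did the rest. A summit equally near to several genes counted for each, which touched no member peak. Sequence nearest to a gene was measured at steps of 1 kb between the first and last summit of a chromosome. Coordinates are 1-based.

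Named with values were all 10 genes, their strongest and gene-end peaks, any peak overlapping a knockout peak, the 3 smallest p on each side of LV against RV, and the 8 strongest other pathway genes. Peaks named for low reads in LV library B, for the unadjusted limma p, and other single peaks were chosen after their values were seen. The 10 genes and all lists were chosen with earlier results of these data known. Each sample is a pool of hearts or ventricles per the labels, and these pools may share animals or be technical. The limma p-values rest on the spread between pools, moderated by the trend over all regions. What spread the authors' p-values measure is not known, since their test is not given. Intervals cover counting error only, and the depth of the whole-heart libraries is unknown. Sequences of peaks outside the promoter table were not used here.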

Additional observations from a re-analysis of the deposited data

How the results depend on the processing

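The number of member peaks was 53 with the nearest gene end, the middle of the peak, or knockout-overlapping peaks left out, 44 with any member within 50000 bp and 37 within 10000 bp. Requiring a -log10 q of 5 left 34 and requiring a fold enrichment of 5 left 9, by construction of stricter thresholds. Notch1, Dll4 and Hey1 had no peak in any of these, and Rbpj had none within 10000 bp. The other pathway genes with a peak fell to 7 with a fold enrichment of 5 required. Overlap with the knockout list stayed at 0 in 3 alternatives. With limma, 0 member peaks passed at pseudocounts of 0.1, 1 and 5 and with regions under a mean of 8 reads removed, and leaving out 1 library gave 0 to 1, the Hes1 peak without LV library A. The ventricle left with 1 library is then assumed to vary like the other. The smallest adjusted p among members ranged from 0.0146 to 0.992 over the 8 fits. The median log2 RV over LV stayed between 0.04 and 0.24, and 31 to 35 peaks were higher in RV when 1 library was left out (added after the data were seen). Of 92 values of 12 named peaks under limma, 88 kept their sign, and the other 4 all came from leaving out 1 library. The settings of pseudocount and reads reused the same libraries, and some peaks were named for their small p. The count of 88 therefore says little of how stable the signs are. Leaving out 1 library gave -0.28 to 0.75 at the strongest Jag1 peak, where the values of the other sign were -0.28 (without LV library A) and -0.18 (without RV library B), -0.60 to 0.0034 at Notch2 (0.0034 without LV library B) and -0.29 to 0.15 at Rbpj (0.15 without RV library A), and the cause was not tested. The range was 0.52 to 1.17 at the strongest Mib1 peak, -1.10 to -0.26 at Hes1 chr16:30066099-30066274, 0.14 to 0.29 at the strongest Maml3 peak and 0.10 to 0.19 at that of Maml1, each of 1 sign. No paired analysis was possible because the columns carry no replicate numbers. Depth also limits single peaks: 24 of 53 had a mean of at least 8 reads per library.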
